A study of Mus musculus with 16 samples.

Results

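A set of 10 genes of the interleukin 6 (IL-6) response was followed in the left ventricle of mice after an operation on the abdomen. They were taken by name from the deposited table as the rows for Il6ra, Il6st, Osmr, Il4ra, Il1r1, Stat3, Socs3, Bcl3, Cebpb and Cebpd, 10 of its 57143 genes. All 10 had a mean of at least 0.5 TPM (transcript abundance scaled for gene length and for the size of the library) over the 16 libraries and were tested, among 16866 genes tested in all. Of the 5 receptors, Il6ra, Il6st and Osmr belong to the IL-6 family, whereas Il4ra and Il1r1 are receptor chains for interleukins 4 and 13 and for interleukin 1. The others are STAT3 itself, its inhibitor Socs3, and the nuclear factors Bcl3, Cebpb and Cebpd.

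Left ventricular RNA of male C57BL/6 mice was sequenced at 4 times after surgery on the abdomen under sevoflurane, an inhaled anaesthetic: 0h, 3h, 24h and 7d, with 4 libraries each. The labels name surgery as the treatment of every library, 0h included, and do not give the animals' age or say whether each library came from its own animal. P-values here therefore measure the spread between these libraries, which may be technical in part. The title of the series ties it to S100A8/A9, calcium-binding proteins of neutrophils, and to myocardial injury after non-cardiac surgery.

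Cytokines of the IL-6 family bind a ligand-specific chain, such as the IL-6 receptor encoded by Il6ra or the oncostatin M receptor encoded by Osmr, and most of them signal through the shared chain gp130, encoded by Il6st. Janus kinases bound to gp130 then phosphorylate STAT3, which enters the nucleus and activates genes that include Socs3, whose protein binds gp130 and its kinases and ends the signal. Bcl3 is a nuclear partner of NF-kappa-B subunits, and Cebpb and Cebpd encode C/EBP factors of the acute-phase response that act downstream of IL-6 and interleukin 1. In heart muscle the gp130 and STAT3 route is known mainly for its role under stress and injury.

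Total counts ran from 8313655 to 12893551 per library, and Pearson's r between libraries of a group, across genes, ran from 0.975 to 0.987. The 6 cardiomyocyte markers, which include Myh6 and Tnnt2, summed to 50067 to 53655 TPM at 0h and 48293 to 53336 TPM at 3h. At 24h their sum was 40008 to 46639 TPM, below every 0h and 3h library, and at 7d it was 40320.5 to 59516 TPM. Some libraries stood apart in other ways. The sum of 10 neutrophil markers was 8.97 to 11.7 TPM at 0h, where Ly6g was at 0 counts, 149 to 573 TPM at 3h with the top value in replicate 1, 67.8 to 331 TPM at 24h with the top value in replicate 4, and 15.4 to 107 TPM at 7d with the top value in replicate 2. The sum of 9 hepatocyte markers was 11.1 to 17.1 TPM at 0h, where Fgg, Fgb and Serpina1a were at 0 counts, 20.3 to 119 TPM at 3h, 6.31 to 33.3 TPM at 24h and 9.89 to 21.9 TPM at 7d, and was highest in 3h replicates 2 and 3. Myl7, a myosin light chain of the atria, measured 0 to 9.59 TPM at 0h, 0.977 to 146 TPM at 3h, 63.8, 126, 6.97 and 159 TPM in 24h replicates 1 to 4, and 0.504 to 0.844 TPM at 7d. The sum of 4 atrial markers, Myl7 among them, did not follow Myl7. That sum was 453 to 1465 TPM at 0h, 256 to 738 TPM at 3h, 479 to 1004 TPM at 24h and 534 to 2762 TPM at 7d. It was highest in 7d replicate 2, where Myl7 measured 0.780 TPM. Fits without such libraries, and with Myl7 as a covariate, were made for every comparison, and the calls lost in them are given with the results. Myl7 itself differed between the times, so the fit with it as a covariate cannot fully separate its part from that of time.

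At 3h against 0h, 7 of the 10 genes were higher and none was lower. Calls are those of edgeR's quasi-likelihood test with an adjusted p under 0.05. The 7 were Osmr, Il4ra, Il1r1, Socs3, Bcl3, Cebpb and Cebpd. Over all genes tested, 1.86% were called higher in this comparison, 314 against 536 lower, while limma on log2(TPM + 1) called 148 higher and 731 lower, and of the 10 genes 5 higher. The median log2 fold change of the 10 genes was 1.09, against 0.00 over all genes. These genes were chosen with earlier results of the same data known, so the contrast with all genes is a description and not a test. At 24h against 0h, 4 were higher and none lower, namely Osmr, Il4ra, Stat3 and Socs3, where 9.2% of all genes were called higher, and the median was 0.55. Over all genes edgeR called 1552 higher and 1381 lower there, and limma on log2(TPM + 1) 643 higher and 2900 lower, with 0 of the 10 genes. At 7d against 0h none of the 10 was called, where 0.86% of all genes changed in either direction (31 higher and 114 lower, and 1 and 52 by limma on log2(TPM + 1)). At 7d 1 of the 10 genes had an unadjusted p under 0.05, and DESeq2 and limma on log2(TPM + 1) called 0. The 3 comparisons share the 0h libraries. Over the whole series, 8 of the 10 changed with time, all but Il6ra and Il6st, where 20.2% of all genes did.

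**Figure D1:**
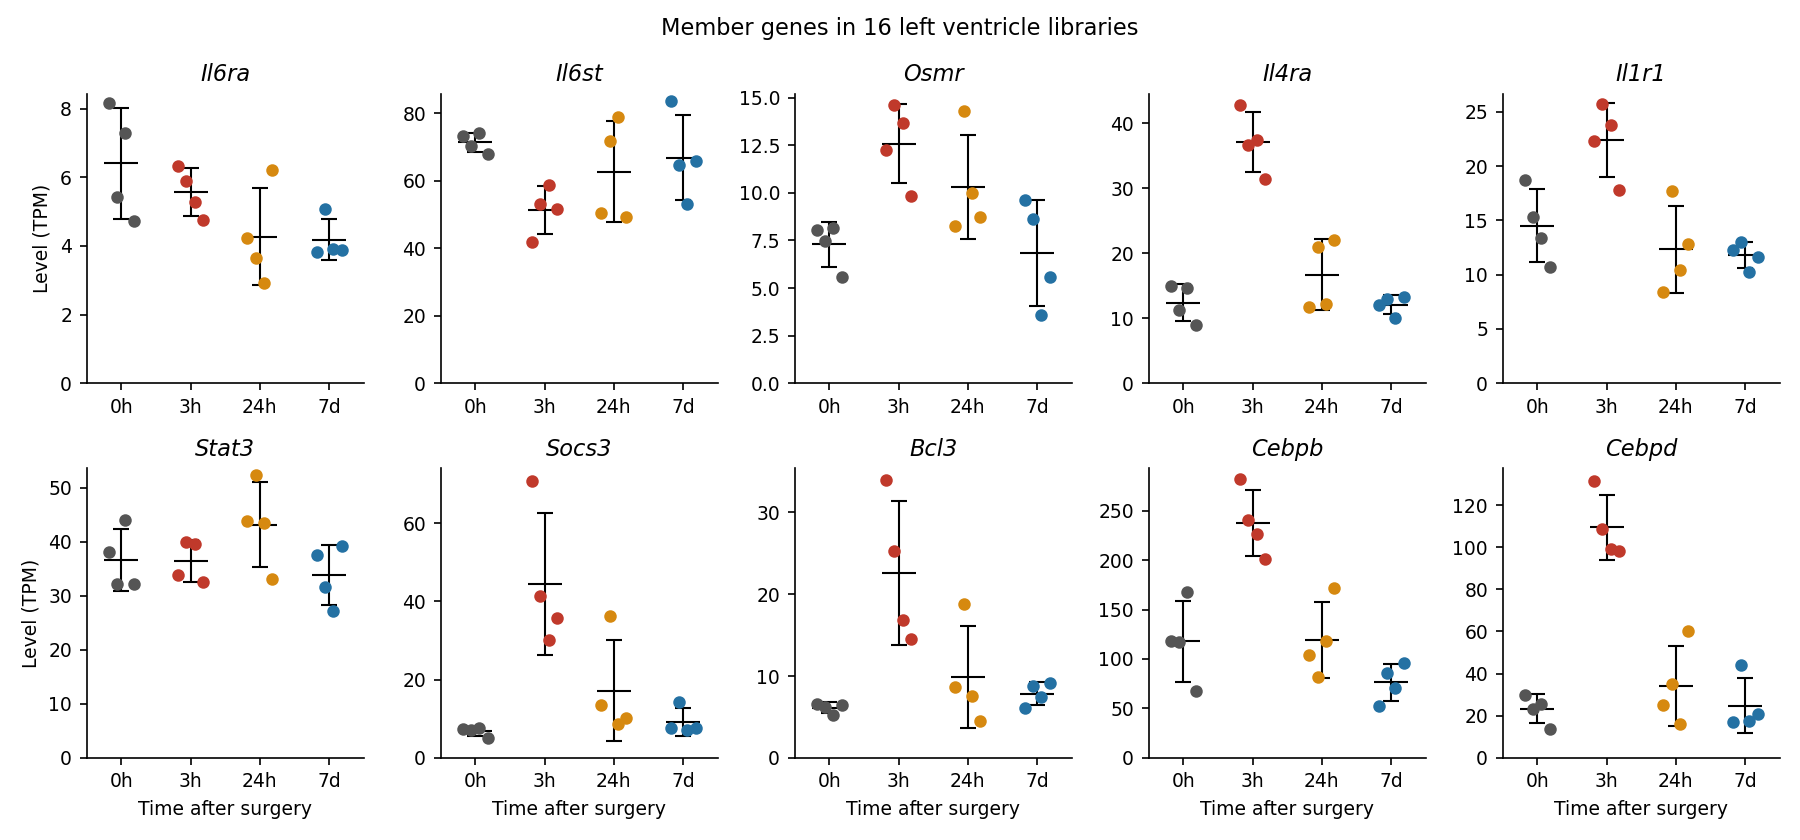
Level (TPM) of each gene in the 16 libraries by time after surgery, with the mean and SD of 4 libraries drawn as a bar and whiskers. Socs3, Bcl3, Cebpd and Il4ra stand highest at 3h, with every 3h library above every 0h library, while Il6ra shows no such step and Il6st lies lower at 3h.

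The ligand-binding chain of the IL-6 receptor was not called in any comparison. Il6ra (ENSMUSG00000027947, chromosome 3, 89864059 to 89913196, - strand, GRCm38) measured 8.17, 5.42, 7.29 and 4.72 TPM in the 0h libraries in replicate order, and in the same order 6.34, 5.89, 5.27 and 4.76 TPM at 3h, 4.24, 3.66, 2.92 and 6.22 TPM at 24h, and 3.82, 5.08, 3.92 and 3.89 TPM at 7d. The 4 groups overlapped throughout. The log2 fold change was -0.01 ± 0.22 (SE) at 3h (adjusted p = 0.989), -0.34 ± 0.23 at 24h (adjusted p = 0.322) and -0.51 ± 0.22 at 7d (adjusted p = 0.282), each against 0h. Without 24h replicate 4, the library of that time richest in neutrophil markers, the 24h difference was -0.64 and called (adjusted p = 0.0385), and so was 24h against 3h (-0.63, adjusted p = 0.0477).

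Il6st (ENSMUSG00000021756, chromosome 13, 112464070 to 112510086, + strand), the gp130 chain that most receptors of the family share, was among the more abundant of the 10. It measured 73.3, 70.2, 74.2 and 67.9 TPM at 0h, 41.7, 53.0, 58.7 and 51.6 TPM at 3h, 50.4, 71.7, 79.0 and 49.4 TPM at 24h, and 83.8, 64.7, 53.1 and 65.8 TPM at 7d. On the TPM scale the 3h libraries all lay below the 0h libraries, at 51.3 ± 7.06 TPM at 3h against 71.4 ± 2.90 TPM at 0h (SD, n = 4 each). The fit gave a log2 fold change of -0.30 ± 0.12 (SE) at 3h, which did not pass the threshold (adjusted p = 0.144), although it did in a fit of those 2 groups alone (adjusted p = 0.00876). At 24h and 7d the log2 fold changes against 0h were 0.01 and -0.01.

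Osmr (ENSMUSG00000022146, chromosome 15, 6813577 to 6874969, - strand), which pairs with gp130 to bind oncostatin M, was higher at 3h and at 24h. It measured 8.03, 7.45, 8.13 and 5.59 TPM at 0h, 12.3, 14.6, 13.7 and 9.81 TPM at 3h, 8.28, 14.3, 10.01 and 8.71 TPM at 24h, and 9.63, 8.60, 3.56 and 5.56 TPM at 7d. Every 3h and every 24h library lay above the highest 0h library, the lowest 24h library only just. The log2 difference from 0h was 0.97 ± 0.23 (SE) at 3h (adjusted p = 0.0259) and 0.70 ± 0.23 at 24h (adjusted p = 0.0485). The 3h call was lost without any of 0h replicates 1 to 4 (adjusted p = 0.0734, 0.0615, 0.0512 and 0.0700) or without 3h replicate 1, 2 or 3 (0.0795, 0.0579 and 0.0568), at log2 fold changes from 0.88 to 1.07 over all such fits. It was also lost without both 3h replicates 2 and 3 (adjusted p = 0.122), with Myl7 as a covariate (0.0995) and by limma on log2(TPM + 1) (0.0782). The 24h call was kept in 5 of 16 fits that leave out 1 library. It was lost without 0h replicates 1 to 4 (adjusted p = 0.0918, 0.0835, 0.0734 and 0.115), 3h replicates 1 to 3 (0.0596, 0.0543 and 0.0601) or 24h replicates 1 to 4 (0.0818, 0.116, 0.0558 and 0.0884), without both 3h replicates 2 and 3 (0.0663) or both 24h replicates 2 and 4 (0.258), and with Myl7 as a covariate (0.423).

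The receptor chain with the smallest p of the 10 genes for any change over time was Il4ra (ENSMUSG00000030748, chromosome 7, 125552120 to 125579474, + strand; adjusted p = 3.48e-05), which is shared by the interleukin 4 and interleukin 13 receptors and signals mainly through STAT6. It measured 14.9, 11.2, 14.6 and 8.93 TPM at 0h, 42.9, 36.7, 37.5 and 31.5 TPM at 3h, 11.8, 21.02, 12.1 and 21.98 TPM at 24h, and 12.04, 12.99, 10.002 and 13.3 TPM at 7d. The 3h libraries lay above all others, and the 24h libraries split, with replicates 2 and 4 above the 0h range and replicates 1 and 3 within it. The 3h level was 3.42-fold that of 0h (log2 1.78 ± 0.21 SE, adjusted p = 0.000498), a call kept in all 16 fits that leave out 1 library and with Myl7 as a covariate (adjusted p = 0.00347). At 24h the log2 difference from 0h was 0.66 ± 0.21 (adjusted p = 0.0402). That call was lost without 0h replicate 1, 2 or 4 (adjusted p = 0.0558, 0.0922 and 0.101), without 24h replicate 2 or 4 (0.0876 and 0.132, with log2 differences of 0.58 and 0.42), without 7d replicate 1 (0.0505), without both 3h replicates 2 and 3 (0.0606) or both 24h replicates 2 and 4 (0.602, log2 0.16), and with Myl7 as a covariate (0.591).

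Il1r1 (ENSMUSG00000026072, chromosome 1, 40225080 to 40317257, + strand), the signalling receptor of interleukin 1, rose at 3h only modestly. It measured 18.7, 15.3, 13.4 and 10.7 TPM at 0h, 22.3, 25.8, 23.8 and 17.8 TPM at 3h, 8.40, 17.7, 10.5 and 12.8 TPM at 24h, and 12.2, 13.05, 10.2 and 11.7 TPM at 7d. The 3h and 0h groups overlapped, since 3h replicate 4 lay below 0h replicate 1. The difference was 1.75-fold (log2 0.81 ± 0.17 SE, adjusted p = 0.00936) and was called in all 16 fits that leave out 1 library. The call was lost with Myl7 as a covariate (adjusted p = 0.0583), without both 3h replicates 2 and 3 (0.0732) or by limma on log2(TPM + 1) (0.0707). At 24h the log2 difference from 0h was -0.03 (adjusted p = 0.928).

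Stat3 (ENSMUSG00000004040, chromosome 11, 100885098 to 100939540, - strand), the transcription factor that the receptors activate, was called at 24h but not at 3h. It measured 38.1, 32.1, 44.1 and 32.2 TPM at 0h, 33.8, 40.0, 39.6 and 32.5 TPM at 3h, 43.8, 52.4, 43.5 and 33.1 TPM at 24h, and 37.6, 31.6, 27.1 and 39.3 TPM at 7d. On that scale the 24h and 0h libraries overlapped, and 24h replicate 2 was the highest of the 16. The log2 fold change against 0h was 0.18 ± 0.12 (SE) at 3h (adjusted p = 0.389) and 0.45 ± 0.12 at 24h (adjusted p = 0.0116), and the 24h call held in all 16 fits that leave out 1 library. It did not hold with Myl7 as a covariate (log2 0.35, adjusted p = 0.352) or by limma on log2(TPM + 1) (log2 0.23, adjusted p = 0.275). Over all genes, the median difference from 0h on log2(TPM + 1) was -0.15 at 3h and -0.19 at 24h. In the fit of counts it was 0.00 and -0.01, so that ratios of TPM run below the fitted folds. The measure is of transcript level and says nothing of STAT3 phosphorylation.

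Socs3 (ENSMUSG00000053113, chromosome 11, 117966079 to 117970047, - strand), the feedback inhibitor of gp130, had the largest 3h rise of the 10 genes. It measured 7.25, 7.16, 7.70 and 5.002 TPM at 0h, 70.8, 41.3, 30.3 and 35.7 TPM at 3h, 13.6, 36.2, 8.73 and 10.2 TPM at 24h, and 7.51, 14.4, 7.07 and 7.65 TPM at 7d. All 3h libraries stood well above all 0h libraries, and 24h replicate 2 alone among the 24h libraries reached the 3h range. Socs3 was 7.60-fold higher at 3h than at 0h (log2 2.93 ± 0.46 SE, adjusted p = 0.00539), and called in all 16 fits that leave out 1 library and with Myl7 as a covariate (adjusted p = 0.0254). Without 3h replicate 1, the library richest in neutrophil markers, the log2 fold change was 2.55 (adjusted p = 0.0138). In bulk tissue more RNA per cell and more cells that carry the transcript cannot be told apart. At 24h the fold was 2.88 (log2 1.53 ± 0.47, adjusted p = 0.0417), and without 24h replicate 2 the log2 difference was 0.96 (adjusted p = 0.0928). That call was also lost without 0h replicates 1 to 4 (adjusted p = 0.0940, 0.0794, 0.0766 and 0.0926), 3h replicate 2 (0.0509), 24h replicate 1 or 4 (0.0820 and 0.0552) or 7d replicate 1 or 4 (0.0502 and 0.0506), and without both 24h replicates 2 and 4 (0.201). With Myl7 as a covariate the call was lost too (adjusted p = 0.321), at a log2 difference of 1.70 ± 0.74 (SE).

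Bcl3 (ENSMUSG00000053175, chromosome 7, 19808462 to 19822770, - strand), a member of the I-kappa-B family that works in the nucleus with p50 and p52, was the least abundant of the 10 at 0h. It measured 6.55, 6.27, 5.18 and 6.51 TPM at 0h, 33.9, 25.2, 16.8 and 14.5 TPM at 3h, 8.63, 18.8, 7.59 and 4.48 TPM at 24h, and 6.13, 8.73, 7.45 and 9.13 TPM at 7d. The 3h range stood clear of the 0h range, and replicate 2 was again the highest library at 24h. The 3h level was 4.22-fold that of 0h (log2 2.08 ± 0.34 SE, adjusted p = 0.00414), in all 16 fits that leave out 1 library, at 1.76 without 3h replicate 1, and with Myl7 as a covariate (adjusted p = 0.0114). At 24h the log2 difference was 0.86 ± 0.35 (adjusted p = 0.101), and 0.43 without 24h replicate 2 (adjusted p = 0.337). Without 24h replicate 4 it was 1.06 and called (adjusted p = 0.0499).

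Cebpb (ENSMUSG00000056501, chromosome 2, 167688915 to 167690418, + strand) and Cebpd (ENSMUSG00000071637, chromosome 16, 15887286 to 15891031, + strand) encode the C/EBP-beta and C/EBP-delta factors. Cebpb measured 118, 118, 168 and 67.5 TPM at 0h, 282, 241, 226 and 201 TPM at 3h, 104, 81.6, 118 and 172 TPM at 24h, and 52.8, 85.9, 70.6 and 95.7 TPM at 7d. Cebpd measured 30.0, 23.4, 25.8 and 13.9 TPM at 0h, 132, 109, 99.1 and 97.9 TPM at 3h, 24.9, 34.9, 16.1 and 60.1 TPM at 24h, and 17.0, 44.1, 17.5 and 20.7 TPM at 7d. For both genes the 3h libraries lay above all 0h libraries, and 24h replicate 4 was the highest at 24h. Cebpd was 5.40-fold higher at 3h than at 0h (log2 2.43 ± 0.45 SE, adjusted p = 0.0106) and called in all 16 fits that leave out 1 library, with an adjusted p of 0.0503 with Myl7 as a covariate. Cebpb was 2.32-fold higher (log2 1.21 ± 0.30 SE, adjusted p = 0.0354), a call lost without 0h replicate 1, 2 or 4 (adjusted p = 0.102, 0.0827 and 0.0699), without 3h replicates 1 to 4 (0.111, 0.0625, 0.0572 and 0.0604), without both 3h replicates 2 and 3 (0.0921) and with Myl7 as a covariate (0.111). At 24h neither was called, at log2 0.27 for Cebpb (adjusted p = 0.578) and 0.81 for Cebpd (adjusted p = 0.234). Without 24h replicate 4 these were -0.03 and 0.30.

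**Figure D2:**
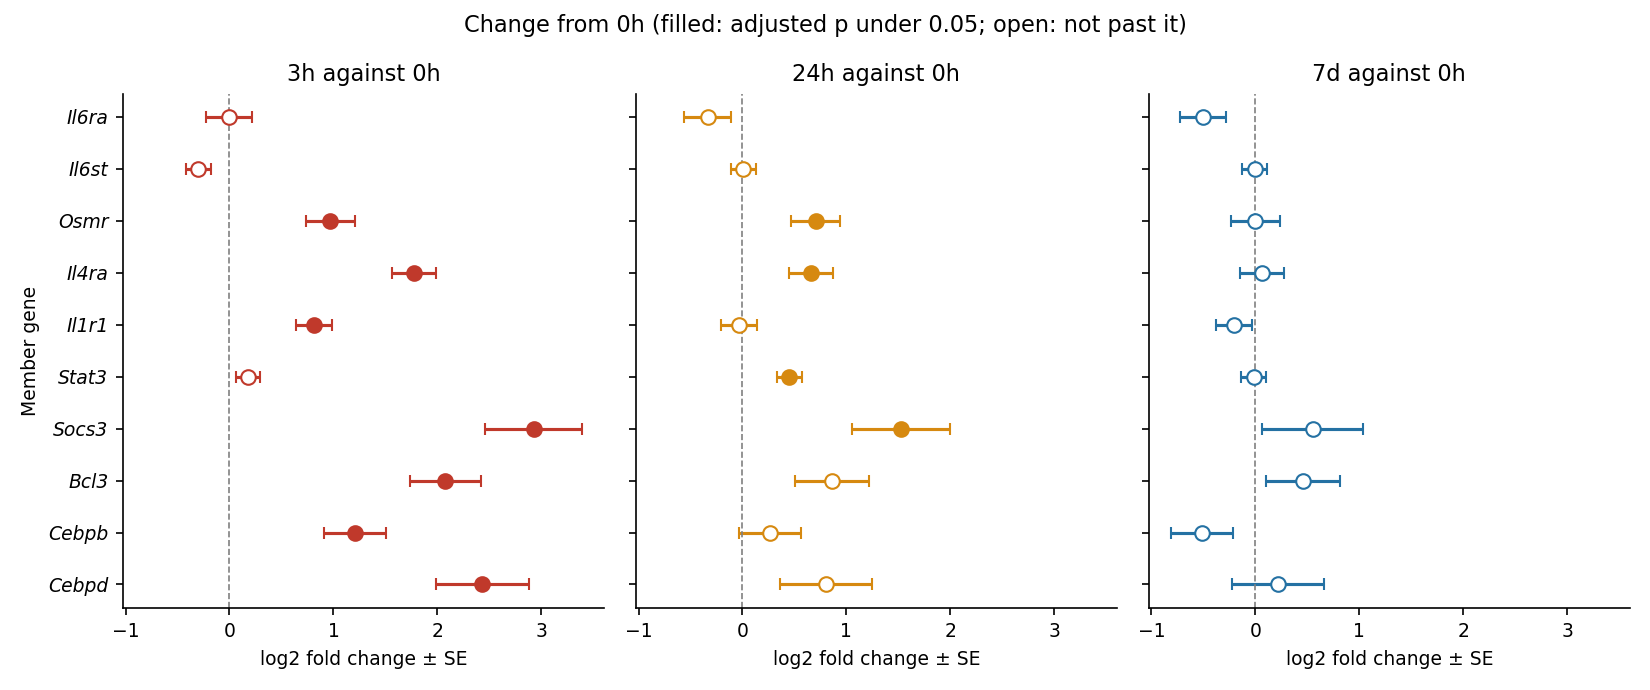
Log2 fold change against 0h with its SE for each of the 10 genes at 3h, 24h and 7d, from edgeR's fit of all 16 libraries. Filled points have an adjusted p under 0.05: 7 at 3h, 4 at 24h and 0 at 7d. Stat3 is filled at 24h and open at 3h.

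Promoter sequence is given for 3 genes called at 3h, namely the gene with the largest rise, the nuclear factor that was nearest to it across the libraries, and the receptor whose promoter held a C/EBP match. The RefSeq promoter tables (GRCm38.p6) held 9 of the 10 genes with 10 promoters, read here over the 250 bases before the annotated start. Motifs were searched on both strands, and matches are in capitals. The STAT motif TTCNNNGAA, which reads the same on both strands, occurred in 7.02% of 32851 promoters, the C/EBP motif TTGCNNAA in 9.56% and the NF-kappa-B motif, GGGNN followed at once by TTTCC, in 1.41%. Of the 10 promoters of these genes, 1 held the STAT motif, 1 the C/EBP motif and 0 the NF-kappa-B motif. Socs3 (chr11:117969367-117969616, - strand) held a STAT match, TTCTTAGAA, from 154 to 146 bases before its start. GENCODE M21 places the start of the coding Socs3 transcript further downstream and an exon of a noncoding Socs3 transcript within this window. Il1r1 (chr1:40224830-40225079, + strand) held a C/EBP match, TTGCTGAA, from 133 to 126 bases before the start, at 1 of its 2 listed starts. Bcl3 (chr7:19822771-19823005, - strand) is shown without the 15 bases nearest the start, which lie in an exon, and held no match to the 3 motifs.
Socs3: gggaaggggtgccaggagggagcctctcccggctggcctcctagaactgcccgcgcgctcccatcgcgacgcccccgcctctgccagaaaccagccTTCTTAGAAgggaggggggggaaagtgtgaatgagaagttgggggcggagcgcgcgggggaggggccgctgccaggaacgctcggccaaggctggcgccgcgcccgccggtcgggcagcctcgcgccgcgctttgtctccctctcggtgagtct
Bcl3: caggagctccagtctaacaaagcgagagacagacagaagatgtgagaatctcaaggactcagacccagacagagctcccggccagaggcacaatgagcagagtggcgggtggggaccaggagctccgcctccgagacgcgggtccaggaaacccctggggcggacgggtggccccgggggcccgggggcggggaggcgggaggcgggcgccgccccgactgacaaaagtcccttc
Il1r1: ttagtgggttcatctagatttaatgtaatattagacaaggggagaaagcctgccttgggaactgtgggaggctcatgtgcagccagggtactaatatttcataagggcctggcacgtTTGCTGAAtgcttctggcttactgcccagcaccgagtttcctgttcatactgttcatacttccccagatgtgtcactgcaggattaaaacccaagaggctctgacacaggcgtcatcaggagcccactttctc
A match describes these letters only, and no match says only that the letters are not in this window.

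The times after surgery were also set against each other. At 24h against 3h, 4 of the 10 genes were lower and none higher (Il4ra, Il1r1, Bcl3 and Cebpd), where 3.56% of all genes were called lower, and the median log2 fold change was -0.89. Il4ra (log2 -1.12 ± 0.20 SE, adjusted p = 0.00296) and Il1r1 (-0.84 ± 0.17, adjusted p = 0.00449) kept that call in all 16 fits that leave out 1 library and with Myl7 as a covariate (adjusted p = 0.00727 and 0.0185), but Il1r1 lost it without both 3h replicates 2 and 3 (0.0753), where Il4ra alone of the 10 was called (0.0289). Bcl3 (-1.22 ± 0.32, adjusted p = 0.0300) lost it without 3h replicate 1 or 2 (adjusted p = 0.0886 and 0.0679) or 24h replicate 1, 3 or 4 (0.0898, 0.0731 and 0.0545), without both 3h replicates 2 and 3 (0.0762) and with Myl7 as a covariate (0.224). Cebpd (-1.62 ± 0.43, adjusted p = 0.0404) lost it without 0h replicates 1 to 3 (0.0516, 0.0564 and 0.0544), 3h replicates 1 to 4 (0.101, 0.0770, 0.0666 and 0.0684) or 24h replicates 1 to 3 (0.115, 0.0868 and 0.0623), without both 3h replicates 2 and 3 (0.137) and with Myl7 as a covariate (0.0921). Socs3 was at -1.40 ± 0.42 (adjusted p = 0.0639) and was called without 24h replicate 2 (-1.97, adjusted p = 0.00535), without both 24h replicates 2 and 4 (0.0205) or, just under the threshold, 7d replicate 2 (-1.40, adjusted p = 0.04997). Cebpb was at -0.95 ± 0.30 (adjusted p = 0.0715) and became a call when 0h replicate 4 was left out (adjusted p = 0.0473), as it did when 24h replicate 4 was (-1.25, adjusted p = 0.0122).

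By 7d the same 7 genes that were higher at 3h than at 0h were called lower than at 3h, where 2.67% of all genes were. The log2 fold changes of 7d against 3h were -0.97 for Osmr, -1.71 for Il4ra, -1.01 for Il1r1, -2.37 for Socs3, -1.62 for Bcl3, -1.73 for Cebpb and -2.22 for Cebpd, with adjusted p from 0.000238 for Il4ra to 0.0232 for Osmr. The call for Osmr was lost without 3h replicates 1 to 3 (adjusted p = 0.0708, 0.0631 and 0.0583) or 7d replicate 4 (0.0716), and the other 6 calls held in all 16 fits that leave out 1 library. With Myl7 as a covariate 5 of the 10 were called, without Osmr (adjusted p = 0.115) and Cebpd (0.0745). Without both 3h replicates 2 and 3 there were also 5, again without Osmr (0.180) and Cebpd (0.0698). This comparison and that of 3h with 0h share the 3h libraries. At 7d against 24h, Stat3 was the gene called, lower by a log2 difference of -0.47 ± 0.12 (SE, adjusted p = 0.0154), where 4.34% of all genes were called lower. Over all genes these were 631 higher and 732 lower, and 748 and 366 by limma on log2(TPM + 1), which called 0 of the 10. The Stat3 call was lost without 24h replicate 1 (adjusted p = 0.0550) or 7d replicate 3 (0.0624), without both 24h replicates 2 and 4 (0.0577) and with Myl7 as a covariate (0.626). Osmr, at -0.70 ± 0.23 (adjusted p = 0.0756), was called without 7d replicate 1 (-0.88, adjusted p = 0.0355) or 2 (-0.87, 0.0318), and Il4ra, at -0.59 ± 0.21 (adjusted p = 0.0910), without 24h replicate 3 (-0.75, adjusted p = 0.0128).

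The 10 genes did not peak in the same libraries. Of the 16 libraries, 3h replicate 1 held the highest TPM of 5 genes and 3h replicate 2 that of 2, with 1 each in 0h replicate 1, 24h replicate 2 and 7d replicate 1. At 24h the order of the libraries differed between genes: replicate 2 was highest for Osmr, Il1r1, Stat3, Socs3 and Bcl3, and replicate 4 for Il6ra, Il4ra, Cebpb and Cebpd. The neutrophil sum was 573 TPM in 3h replicate 1 and 149 to 199 TPM in the other 3h libraries. At 24h it was 113 TPM in replicate 2 and 331 TPM in replicate 4. Of the 10 neutrophil markers 7 passed the filter on level, some only through the libraries where they were high, and 7 were higher at 3h than at 0h and 5 at 24h, and of the 7 hepatocyte markers that passed it, 4 and 1 were. Among 8 macrophage markers 2 were higher at 3h and 0 at 24h, and of the 6 cardiomyocyte markers none was called at 3h and 1 was lower at 24h. At 24h 1 of 6 fibroblast markers was higher and 2 were lower, and 2 of 3 mesothelial markers were lower. Of 6 endothelial markers 1 was lower at 3h, and 1 was higher and 1 lower at 24h. Of 4 atrial markers 0 were called at 3h and 2 were higher at 24h. Over all genes, 1.86% were called higher and 3.18% lower at 3h, and 9.2% and 8.19% at 24h. The part of these cells and of atrial tissue in the changes of the 10 genes was not tested. Every 3h library had a neutrophil sum of at least 149 TPM, against at most 11.7 TPM at 0h. Leaving out 3h libraries therefore cannot separate the part of neutrophils, and Myl7 does not measure them. Socs3, Bcl3 and Il4ra kept their 3h call without 3h replicate 1, without 3h replicates 2 and 3, and with Myl7 as a covariate.

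**Figure D3:**
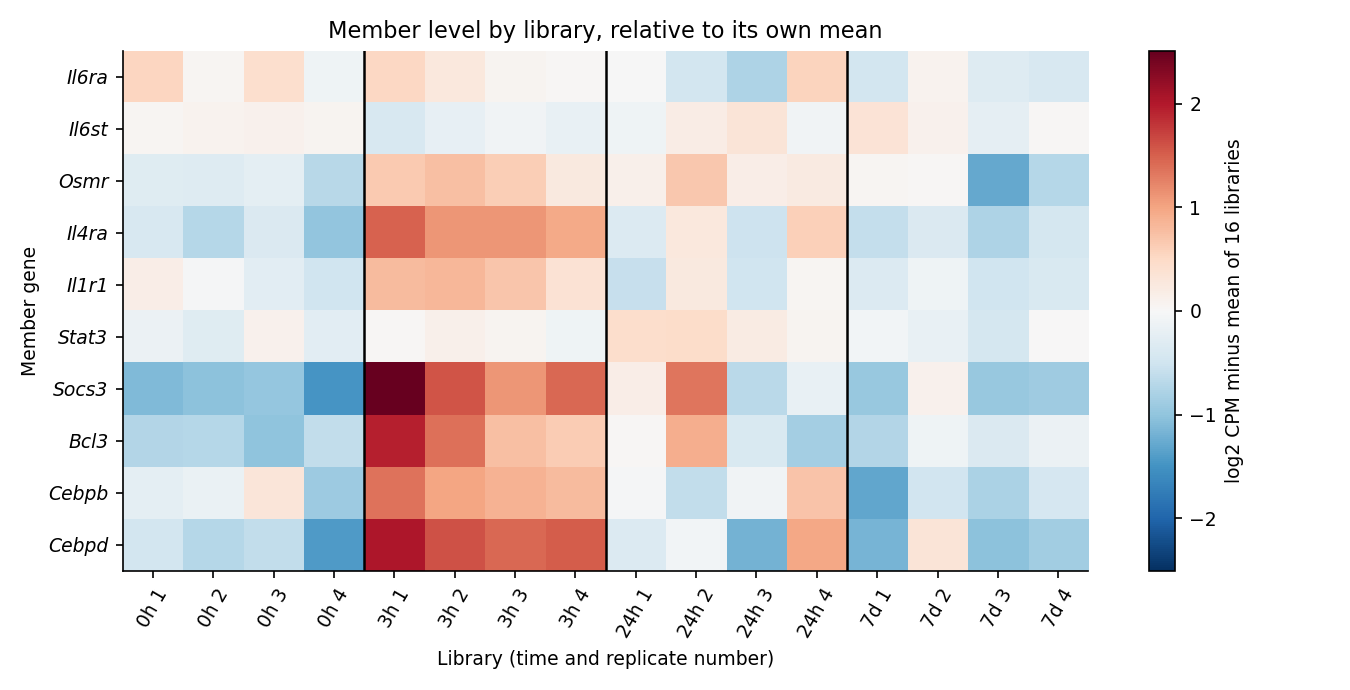
Log2 CPM (counts scaled to the size of the library) of each gene in each library minus the mean of that gene over the 16 libraries, in columns by time and replicate. The 3h columns are red for Osmr, Il4ra, Il1r1, Socs3, Bcl3, Cebpb and Cebpd, and replicates 2 and 4 of 24h are raised for different genes.

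At 0h, per length, Cebpb was the most abundant of the 10 at 118 ± 41.0 TPM (SD, n = 4), followed by Il6st at 71.4 ± 2.90 TPM, Stat3 at 36.6 ± 5.70 TPM and Cebpd at 23.2 ± 6.82 TPM. The libraries of Cebpb and Il6st overlapped, those of Stat3 stood apart from Il6st above it and Cebpd below it, and those of Cebpd overlapped with Il1r1 (14.5 ± 3.38 TPM) and Il4ra (12.4 ± 2.88 TPM). The lowest 4, which overlapped with each other, were Osmr (7.30 ± 1.18 TPM), Socs3 (6.78 ± 1.21 TPM), Il6ra (6.40 ± 1.603 TPM) and Bcl3 (6.13 ± 0.643 TPM). The ligand-binding chains Il6ra and Osmr lay below their partner Il6st in every 0h library.

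The surrounding pathway was described from 10 further lists, also chosen with earlier results of these data known. Of their 93 genes, 78 were tested, and at 3h 9 were higher and 0 lower (median log2 difference 0.04). That is set against 1.86% of all genes called higher and 3.18% called lower. At 24h 4 were higher and 5 lower (median 0.05), which is no more than the share over all genes, 9.2% higher and 8.19% lower. With Myl7 as a covariate, Pim3 and Il1r2 alone of the 9 kept their 3h call, as they did without both 3h replicates 2 and 3, and none of the 9 called at 24h kept that call with Myl7 as a covariate. Over all genes the calls fell in that fit from 850 to 187 at 3h and from 2933 to 86 at 24h. Such losses are therefore not particular to these lists. At 7d none of the 78 was called by edgeR (median -0.05), with 7 at an unadjusted p under 0.05, 1 called by DESeq2 and 0 by limma on log2(TPM + 1). The Janus kinases were measured in full, 4 of 4, and none was called at 3h or 24h, where 1 and 0 had an unadjusted p under 0.05, DESeq2 called 1 and 0 and limma 1 and 0. Their median log2 difference from 0h was -0.19 at 3h and 0.09 at 24h. Mean TPM was 52.8 at 3h against 78.5 at 0h for Jak1 and 21.9 against 28.8 for Jak2. It was 8.49 against 10.7 for Tyk2 and 17.4 against 16.3 for Jak3. Of the other STAT genes 5 of 6 were tested and edgeR called none at either time, with 1 and 2 at an unadjusted p under 0.05, while DESeq2 called 0 and 0 and limma 0 and 2.

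**Figure D4:**
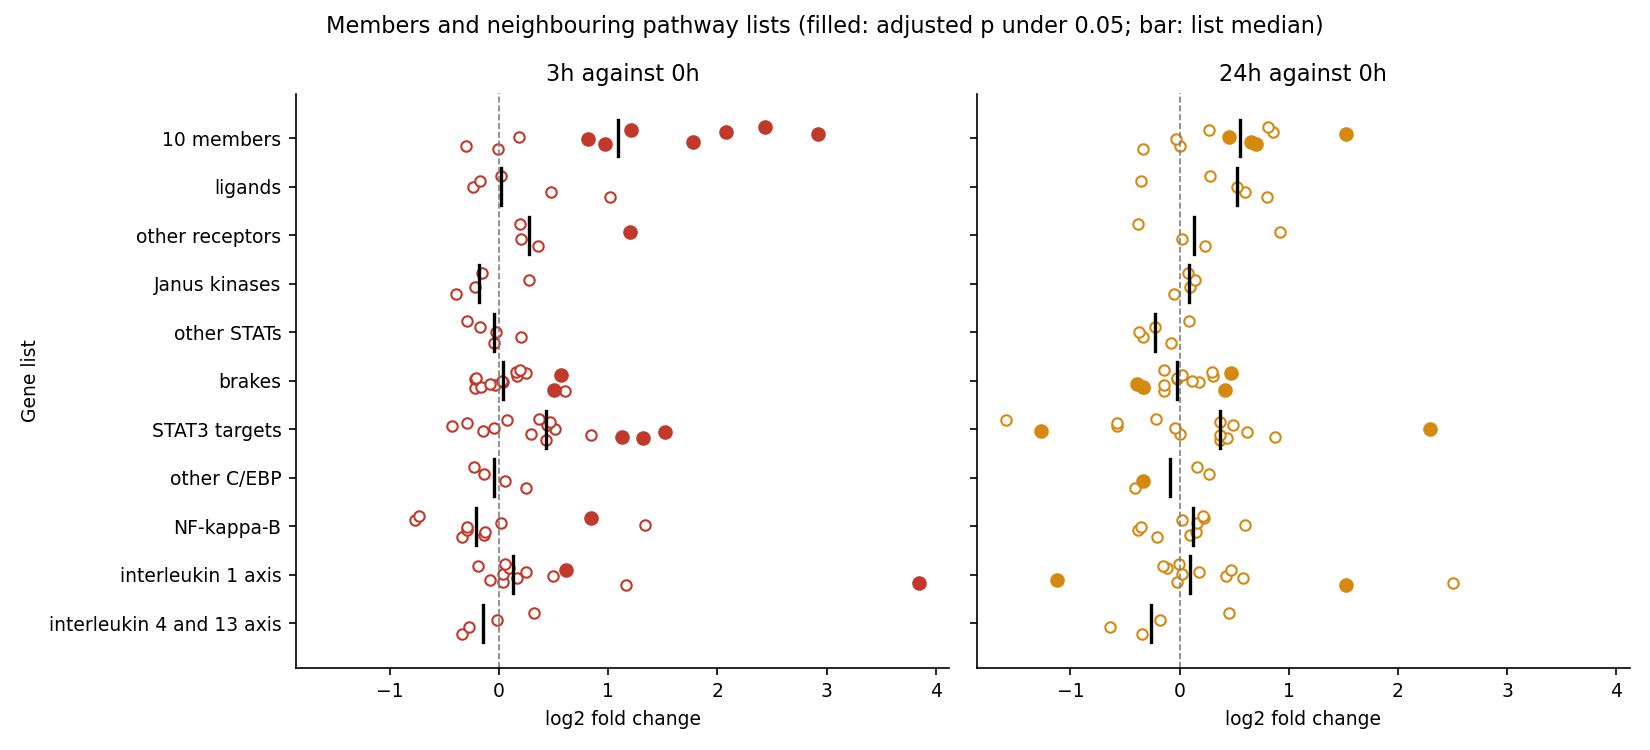
Log2 fold change at 3h and at 24h against 0h of the 10 genes and of the tested genes of 10 neighbouring lists, 1 point per gene, with a bar at the median of each list. Filled points have an adjusted p under 0.05; the 10 genes have a median of 1.09 at 3h and 0.55 at 24h.

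Ligands of the family had few counts. Over the 4 libraries of a time, Il6 had 1 count at 0h, 4 at 3h, 17 at 24h and 3 at 7d, and 24h replicate 2 held 13 of the 17 (1.69 TPM). Il11 had 3, 6, 0 and 3 counts at these times and Lif, leukaemia inhibitory factor, 38, 13, 25 and 33. None of the 3 reached the level that was tested. Osm, oncostatin M, had 11, 20, 18 and 20 counts and was not called (log2 1.02 ± 0.72 SE at 3h against 0h, adjusted p = 0.425). Of 11 ligands 5 were tested and none was called at 3h or 24h, with 1 at an unadjusted p under 0.05 at each time, and DESeq2 called 0 at 3h and 1 at 24h and limma 0 at both. Of 4 other receptors tested, Cntfr, the ciliary neurotrophic factor receptor, was higher at 3h, averaging 5.05 ± 0.978 TPM against 2.50 ± 0.822 TPM at 0h (SD, n = 4 each; log2 1.197 ± 0.33 SE, adjusted p = 0.0367). That call was lost without 0h replicates 1 to 4 (adjusted p = 0.0864, 0.0551, 0.0727 and 0.0987) or 3h replicates 1, 3 or 4 (0.0904, 0.0575 and 0.123), without both 3h replicates 2 and 3 (0.0645) and with Myl7 as a covariate (0.147).

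Among 15 other brakes on the route, 2 were higher and none lower at 3h. Ptpn1, a tyrosine phosphatase that acts on Janus kinases, averaged 21.2 ± 2.31 TPM in the 3h libraries against 16.3 ± 3.02 TPM in those of 0h (log2 0.56 ± 0.12 SE, adjusted p = 0.00898), in all 16 fits that leave out 1 library, but not with Myl7 as a covariate (adjusted p = 0.0732) or without both 3h replicates 2 and 3 (0.0790). Socs2, a relative of Socs3, was higher at 3h (log2 0.50, adjusted p = 0.0297) and at 24h (log2 0.42, adjusted p = 0.0331). It lost the 3h call without 0h replicates 1 or 2 (adjusted p = 0.115 and 0.105) or 3h replicates 1, 3 or 4 (0.149, 0.0542 and 0.0513), and the 24h call without 0h replicates 1 or 2 (0.107 and 0.108) or 24h replicates 1 or 2 (0.142 and 0.0533). At 24h Ptpn2, another phosphatase of this kind, was higher (log2 0.47, adjusted p = 0.0204; lost without 0h replicate 1 or 4 or 24h replicate 1 or 4, at 0.0543, 0.0571, 0.0550 and 0.0876). Socs7 fell by 0.39 on the log2 scale (adjusted p = 0.0101, in all 16 fits that leave out 1 library) and Socs5 by 0.33 (adjusted p = 0.0183; lost without 0h replicate 2 or 24h replicate 1, at 0.0629 and 0.0632). With Myl7 as a covariate all 4 calls at 24h were lost, at adjusted p = 0.343 for Socs2, 0.287 for Ptpn2, 0.334 for Socs7 and 0.221 for Socs5, and Socs2 was not called at 3h (0.1001). Without both 24h replicates 2 and 4 the same 4 were lost (0.0558, 0.116, 0.105 and 0.0533), and without both 3h replicates 2 and 3 the 3h call of Socs2 was (0.0539).

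Of 15 tested target genes of STAT3 outside the 10, 3 were higher and none lower at 3h (median log2 difference 0.43). Pim3, a survival kinase, averaged 325 ± 29.4 TPM in the 3h libraries against 149 ± 38.3 TPM in those of 0h (SD, n = 4 each; log2 1.32 ± 0.22 SE, adjusted p = 0.00481), called in all 16 fits that leave out 1 library and with Myl7 as a covariate (adjusted p = 0.0281). Bcl2l1, which encodes the survival factor BCL-XL, averaged 103 ± 5.07 TPM in the 3h libraries against 41.1 ± 10.5 TPM in those of 0h (log2 1.52, adjusted p = 0.0348), and Myc, a transcription factor of growth, averaged 10.6 ± 2.41 TPM at 3h against 5.55 ± 2.31 TPM at 0h (log2 1.13, adjusted p = 0.0466). The Bcl2l1 call was lost without any of the 8 libraries compared (adjusted p up to 0.103), and the Myc call was kept in 5 of 16 such fits (adjusted p up to 0.141). With Myl7 as a covariate neither was called (adjusted p = 0.115 for Bcl2l1 and 0.191 for Myc), nor without both 3h replicates 2 and 3 (0.107 and 0.143). At 24h Timp1, an inhibitor of matrix proteases, averaged 32.8 ± 30.7 TPM in the 24h libraries against 7.51 ± 1.40 TPM in those of 0h (log2 2.30 ± 0.47 SE, adjusted p = 0.00381), and Ccnd1, cyclin D1, 29.8 ± 7.92 TPM at 24h against 83.3 ± 7.38 TPM at 0h (log2 -1.27 ± 0.24, adjusted p = 0.00246). Both were called in all 16 fits that leave out 1 library and neither with Myl7 as a covariate (adjusted p = 0.342 and 0.133).

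For NF-kappa-B, the partner of Bcl3, 1 of 10 genes was higher at 3h and none was lower. It was Nfkbiz, a nuclear relative of Bcl3, with a log2 fold change of 0.84 ± 0.21 (SE, adjusted p = 0.0192), which was lost without 0h replicate 1 or 2 (adjusted p = 0.0721 and 0.0643) or 3h replicate 1 or 3 (0.0930 and 0.0585), without both 3h replicates 2 and 3 (0.124) and with Myl7 as a covariate (0.101). Nfkbia, the inhibitor that NF-kappa-B induces, named after its values were seen, averaged 241 ± 53.9 TPM in the 3h libraries against 109 ± 17.4 TPM in those of 0h, without overlap, and was not called (log2 1.34 ± 0.40, adjusted p = 0.0715). The list as a whole had a median log2 difference of -0.21 at 3h, with 4 of the 10 at an unadjusted p under 0.05. DESeq2 called 3 and limma on log2(TPM + 1) called 1. Nfkb1 averaged 10.7 ± 1.33 TPM in the 3h libraries against 15.4 ± 1.05 TPM in those of 0h, and Nfkbie 1.64 ± 0.333 TPM against 3.20 ± 0.578 TPM. Both lay lower at 3h without overlap and were not called. Of the other C/EBP genes none of 4 tested was called at 3h, by edgeR, DESeq2 or limma, or had an unadjusted p under 0.05 (0). Cebpg was lower at 24h (log2 -0.34, adjusted p = 0.0439), a call kept in 8 of 16 fits that leave out 1 library (adjusted p up to 0.156) and lost with Myl7 as a covariate (0.302), without both 24h replicates 2 and 4 (0.223) or without both 3h replicates 2 and 3 (0.0575).

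On the interleukin 1 side, beside Il1r1, 2 of 12 genes tested were higher at 3h and none lower. Il1r2, the decoy receptor carried by neutrophils, averaged 2.84 ± 1.47 TPM in the 3h libraries against 0.222 ± 0.325 TPM in those of 0h (log2 3.85 ± 0.84 SE, adjusted p = 0.0102), and passed the filter on level through the libraries where it was high. Without 0h replicate 1 its adjusted p was 0.0505. Irak3, an inhibitor of signalling from the receptor, averaged 9.89 ± 0.621 TPM in the 3h libraries against 7.31 ± 1.05 TPM in those of 0h (log2 0.62, adjusted p = 0.0329; kept in 9 of 16 fits that leave out 1 library, adjusted p up to 0.101, and lost with Myl7 as a covariate, 0.0763, and without both 3h replicates 2 and 3, 0.0871). At 24h Il1b was higher (log2 1.53, adjusted p = 0.0388) and, without 24h replicate 2, at 0.84 (adjusted p = 0.237), with 10 of 16 fits keeping the call. It was lost with Myl7 as a covariate (0.322), without both 24h replicates 2 and 4 (0.0782) and without both 3h replicates 2 and 3 (0.0572). Il1rl1, the receptor of interleukin 33, averaged 0.904 ± 0.423 TPM in the 24h libraries against 2.25 ± 0.280 TPM in those of 0h (log2 -1.12 ± 0.28, adjusted p = 0.00773), in all 16 fits that leave out 1 library but not with Myl7 as a covariate (adjusted p = 0.137). Of 4 genes tested on the interleukin 4 and 13 side, none was called with Il4ra at 3h or 24h, where 1 and 3 had an unadjusted p under 0.05, DESeq2 called 0 at both and limma 0 and 2. Their median log2 difference from 0h was -0.15 at 3h and -0.26 at 24h. Mean TPM was 45.0 at 3h against 64.6 at 0h for Il13ra1 and 11.4 against 15.6 for Il2rg. It was 12.8 against 14.8 for Irs1 and 7.72 against 7.01 for Irs2.

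Likeness to other genes was measured as the root mean square difference in log2 CPM, each gene centred on its own mean, over the 16 libraries. Nearest to Stat3 outside the 10 were Rnf31 at 0.111, Sidt2 at 0.139 and Abhd4 at 0.141, where the median over all genes was 0.394. Nearest to Socs3 were Fam110d at 0.518, Sbno2 at 0.598 and Mcemp1 at 0.609, against a median of 1.23, and Bcl3 was nearer than these at 0.489. Nearest to Il4ra were Pfkfb3 at 0.234, Sbno2 at 0.266 and Ifi207 at 0.267, against a median of 0.831. These are descriptions over libraries that share their time groups.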

How the data were processed

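RNA of the left ventricle was measured in 16 libraries, 4 at each of 0h, 3h, 24h and 7d, grouped by the time in their labels. TRIzol extraction, DNase treatment and a directional NEBNext kit were used, per the labels' protocols. Reads were handled with cutadapt and STAR on build mm10, per the submitters' processing notes. Versions, counting tool and strand setting: not given in the sources used here. Overlapping and antisense genes are therefore uncertain. For each library, 1 table of 57143 genes from the authors gives raw counts beside TPM and FPKM. The counts as deposited are whole and unscaled. The deposited TPM were recovered from counts and gene lengths to within a relative 1.7e-14, and the deposited FPKM were not used. Columns were tied to libraries by the time and replicate in the column name, although its prefix is not that of the titles. Of the rows, 525 have no symbol.

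The test took 16866 genes whose mean TPM was at least 0.5. After TMM scaling, counts of all 16 libraries entered 1 edgeR 4.0.16 fit without a block (estimateDisp, then robust glmQLFit and glmQLFTest; R 4.3.3), with Benjamini-Hochberg adjustment over all genes tested and a threshold of 0.05. Every adjusted p is from this fit unless another is named. Folds and log2 fold changes are of fitted counts, and levels are TPM. Alternatives were DESeq2 1.42.0, limma 3.58.1 on log2(TPM + 1) and log2(TPM + 0.1), median-of-ratios scaling, other filters (none, a mean TPM of 2, or 10 counts in all), the compared groups alone, a replicate block, log2 CPM of Myl7 as a covariate, and libraries left out. The filter of 10 counts and the fit without 24h replicates 2 and 4 were chosen after seeing the data. Scripts were tested on simulated data.

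The members and all lists were chosen with earlier results of these data known. All 10 members are named. From 10 lists of related pathways, up to 4 called genes per list and comparison were named by smallest p, with Il6, Il11, Lif and Osm always, and for Stat3, Socs3 and the member of smallest p for any change (Il4ra) the 3 nearest genes (CPM with a prior count of 2). Coordinates are of GENCODE M21 (GRCm38), 1-based. Promoters are from RefSeq (GRCm38.p6).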

Additional observations from a re-analysis of the deposited data

Results flagged for a closer look

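Among the 7d libraries, replicate 2 lay above the other 3 for Il6ra, Socs3 and Cebpd, by a gap that was large for the spread of the group. Il6ra measured 5.08 TPM there and at most 3.92 TPM in the others. Socs3 measured 14.4 TPM there and at most 7.65 TPM in the others. Cebpd measured 44.1 TPM there and at most 20.7 TPM in the others. In each case the gap to the nearest library, as a share of the whole range of the group, was above the limit of Dixon's test for 4 samples (0.922, 0.921 and 0.865 of the range). This held in 3 of 40 groups examined, where chance gives about 1 in 20. The sum of neutrophil markers in that library was 107 TPM, and 15.4 to 39.2 TPM in the other 7d libraries. Its part in these values was not tested. Without 7d replicate 2 the log2 fold changes of 7d against 0h were -0.64 for Il6ra (edgeR, adjusted p = 0.314), 0.20 for Socs3 (adjusted p = 0.917) and -0.26 for Cebpd (adjusted p = 0.857), with none called.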

How the results depend on the processing

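No called member changed sign under any alternative. Of the member differences, 1530 kept their side of the threshold, 114 lost a call and 36 gained one, and the cause of a changed call was not tested. With 1 library left out, edgeR called 5 to 7 of the 10 genes at 3h against 0h, 1 to 4 at 24h against 0h, 0 to 0 at 7d against 0h, 2 to 5 at 24h against 3h, 0 to 2 at 7d against 24h, 6 to 7 at 7d against 3h and 7 to 9 for any change over time. Over all genes these counts, in the same order, were 286 to 1349, 1575 to 4262, 27 to 287, 756 to 1644, 755 to 2407, 444 to 1030 and 2458 to 4718.

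With Myl7 as a covariate, 3 of the 10 genes and 187 of all genes were called at 3h against 0h, 0 and 86 at 24h against 0h, 2 and 539 at 24h against 3h, 0 and 23 at 7d against 24h, 5 and 222 at 7d against 3h, with 883 of all genes for any change over time. Without 3h replicates 2 and 3, 4 and 351 were called at 3h against 0h and 1 and 338 at 24h against 3h, with 2 of the 10 at 24h against 0h and 83 and 238 of all genes at 7d against 0h and against 3h. Without 24h replicates 2 and 4, 1 and 1464 were called at 24h against 0h and 0 and 507 at 7d against 24h, with 232 of all genes at 7d against 0h. With the compared groups alone, 2 of the 10 were called at 24h against 0h, 2 and 812 at 24h against 3h and 0 and 354 at 7d against 24h, with 3224 and 408 of all genes at 3h and 7d against 0h. DESeq2 called 1299 and 454 of all genes at 3h and 7d against 0h and 3 of the 10 at 7d against 24h. Without a filter, where the spread between genes was estimated as uniform (infinite prior degrees of freedom), 2 and 735 were called at 7d against 0h and 6 of the 10 at 7d against 24h, with 1786 and 1458 of all genes at 3h against 0h and at 7d against 3h. By limma on log2(TPM + 1), 0 of the 10 were called at 24h against 0h and at 7d against 24h, with 53 and 498 of all genes at 7d against 0h and against 3h. By limma on log2(TPM + 0.1) these were 1, 0, 27 and 475.

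Same-numbered libraries of different times did not deviate together (24 pairs, r from -0.12 to 0.06, none over 0.1, and 0 of 16 libraries closest to its own number). These values gave no sign of pairing by replicate number but cannot exclude a shared day or batch. With the replicate number as a block, 2 of the 10 genes were called at 7d against 24h and 64 of all genes at 7d against 0h. At 3h against 0h 6 of the 10 were called, without Cebpb (adjusted p = 0.0738), and at 24h against 0h 3, without Il4ra (0.0713). Il6, Il11 and Lif had a mean TPM under 0.5 and were left out by that filter.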
